A study of Mus musculus with 6 samples.

Results

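The cell cycle and DNA replication genes described here are 34 genes chosen by symbol from the 47967 genes of the deposited count table, 22 of which act in mitosis and 12 at the G1/S step and in replication. They were measured by RNA sequencing of gastrocnemius, the large superficial calf muscle, from male C57BL/6 mice aged 20 to 24 weeks. For 12 weeks, mice of the normal phosphate group ate chow with 0.6% inorganic (0.9% total) phosphate and mice of the high phosphate group ate chow with 2.0% inorganic (2.3% total) phosphate. Magnesium (0.3%), calcium (1.9%), potassium (1.8%) and sodium (0.9%) were equal in both diets, no other agent or allele is named, and each diet has 3 libraries. The series asks what a high phosphate intake does to the muscle transcriptome. Nothing in the labels ties each library to its own mouse, so every p-value speaks only of the spread among these 6 samples, and that spread may be technical. All 10 muscle fibre markers examined were detected. On the normal diet they summed to between 67718 and 96288 CPM, and on the high phosphate diet to between 172452 and 223720 CPM. These CPM are counts divided by the library total and by a TMM factor, which sets a typical gene equal between libraries. The factors were 1.1, 1.29 and 1.16 on the normal and 0.795, 0.871 and 0.882 on the high phosphate diet. The scaling thus widened the gap between the diets in these sums.

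Cells that divide pass from G1 into S phase, when the MCM helicase, the sliding clamp PCNA and the enzymes that make deoxynucleotides copy the genome, and then through G2 into mitosis, when cyclin-dependent kinase 1 and the Aurora and Polo kinases drive chromosome segregation. G1/S genes are controlled by E2F factors held in check by the RB family, and G2/M genes by MuvB complexes with B-MYB and FOXM1 through the CHR promoter element, often beside CCAAT boxes. Muscle fibres have left the cell cycle for good, so transcripts of mitosis in adult muscle are usually ascribed to the few dividing satellite, stromal, endothelial and immune cells between them. Several replication genes also serve DNA repair and deoxynucleotide supply in cells that do not divide.

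Promoter stretches are shown for 5 members, because CHR and E2F elements are the usual features that separate mitotic from replication genes and because these 5 genes changed between the diets. They come from RefSeq on GRCm38.p6, read 5′ to 3′ on the gene's strand, and cover only bases upstream of annotated exons. Capitals mark matches on either strand to the CHR (TTTGAA or TTCGAA), the CCAAT box (CCAAT) or an E2F element (TTGGCGC or TTCCCGC). An E2F match and a CCAAT box read on the other strand can share bases.
Cdk1: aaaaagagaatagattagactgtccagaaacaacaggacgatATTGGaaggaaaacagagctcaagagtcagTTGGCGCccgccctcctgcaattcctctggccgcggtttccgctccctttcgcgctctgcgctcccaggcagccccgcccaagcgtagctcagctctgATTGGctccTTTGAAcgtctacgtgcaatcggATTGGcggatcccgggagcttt
Ccnb2: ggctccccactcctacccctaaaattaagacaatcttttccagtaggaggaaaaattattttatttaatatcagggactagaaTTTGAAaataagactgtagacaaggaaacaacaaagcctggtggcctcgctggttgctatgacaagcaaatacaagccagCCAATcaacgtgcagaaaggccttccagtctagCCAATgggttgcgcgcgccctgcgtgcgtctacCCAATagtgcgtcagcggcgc
Aurka: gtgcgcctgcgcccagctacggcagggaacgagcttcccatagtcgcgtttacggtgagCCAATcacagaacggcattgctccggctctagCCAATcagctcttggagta
Mcm5: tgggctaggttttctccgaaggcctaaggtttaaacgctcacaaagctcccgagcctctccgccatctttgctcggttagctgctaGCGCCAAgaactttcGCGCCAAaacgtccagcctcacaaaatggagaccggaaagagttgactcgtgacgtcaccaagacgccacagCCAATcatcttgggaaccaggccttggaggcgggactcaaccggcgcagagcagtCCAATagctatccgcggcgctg
Mcm6: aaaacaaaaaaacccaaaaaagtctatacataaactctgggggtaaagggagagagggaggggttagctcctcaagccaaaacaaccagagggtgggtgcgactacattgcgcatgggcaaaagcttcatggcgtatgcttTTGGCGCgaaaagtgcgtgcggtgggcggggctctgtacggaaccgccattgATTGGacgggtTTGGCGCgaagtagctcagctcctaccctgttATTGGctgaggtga
The Cdk1 stretch is chr10:69352939-69353162 (minus strand), the Ccnb2 stretch chr9:70421555-70421804 (minus strand) and the Aurka stretch chr2:172370571-172370680 (minus strand). The Mcm5 stretch is chr8:75109259-75109508 (plus strand) and the Mcm6 stretch chr1:128359706-128359955 (minus strand). Cdk1 and Ccnb2, which encode the mitotic kinase and one of its cyclins, each have a CHR match and 3 CCAAT boxes in the stretch shown, and Cdk1 also has an E2F match. Aurka shows 2 CCAAT boxes there, and its CHR match lies downstream of the start, at bases 33 to 38. Mcm5 and Mcm6, helicase subunits, each show 2 E2F matches and 2 CCAAT boxes and no CHR match.

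RefSeq promoters of 300 bases, 250 before and 50 after the start, were found for 28 of the 34 members, and Ccna2, Tpx2, Aurkb, Kif20a, Ccne2 and Mcm4 have none in the table used. A CHR match was found in 14 of 18 mitotic and 2 of 10 replication members, and in 19.2% of all 32851 promoters. Members were counted by gene, with a match in any of their promoters, and all promoters singly. Mcm7, counted as a CHR match, has a further promoter without one. An E2F match was found in 3 of 18 mitotic and 5 of 10 replication members, and in 6.81% of all promoters. CCAAT boxes were common to both groups, with 16 of 18 and 8 of 10 members, against 37.4% of all promoters. A match describes these letters only and is not a binding site.

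The libraries held 21856006 to 27474251 gene counts. Normal phosphate replicate 2 stood apart from replicates 1 and 3 of its diet on the first principal component (-75.4 against -36.5 and -43.8, where the high phosphate libraries lay at 51.1 to 53.0). Calls and counts of the members are therefore given with and without this library. Levels are CPM after TMM scaling, which sets a typical gene equal between libraries, and mean ± SD values have n = 3 per diet. A log2 fold change compares high with normal phosphate, is positive where high phosphate is higher, and carries its SE. A gene is called, and said to rise or fall, at a Benjamini-Hochberg adjusted p under 0.05 in edgeR's quasi-likelihood test, fitted to all 15347 genes that passed the low-count filter, and all adjusted p below are from that fit unless another is named. Under library size alone the median gene moved from -0.016 to -0.49 (log2), so directions are relative to a typical gene. For members and further cell cycle genes that rose, the outcome with library size alone is given as well.

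Of the 21 mitotic members tested, 9 fell on the high phosphate diet, 2 rose and 10 were not called, with a median log2 fold change of -1.13. Among all genes tested, 26.3% fell and 23.0% rose, and the median was -0.016. Of the 11 replication members tested, 4 fell, 4 rose and 3 were not called, with a median of -0.21. With library size alone the same counts were 15 lower and 2 higher for mitotic members and 7 lower and 0 higher for replication members, where 51.4% of all genes fell and 5.72% rose. DESeq2 called 9 mitotic members lower and 2 higher, and 3 replication members lower and 4 higher, where 19.4% of its genes fell and 19.2% rose. The 4 replication calls in the higher direction thus depended on the scaling, whereas those of the 2 mitotic genes, Aurka and Tpx2, were made under both. Bub1 and Ccne1 did not pass the low-count filter, and are given by their counts below. In bulk tissue, fewer cells of a type and less RNA per cell cannot be told apart.

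**Figure D1:**
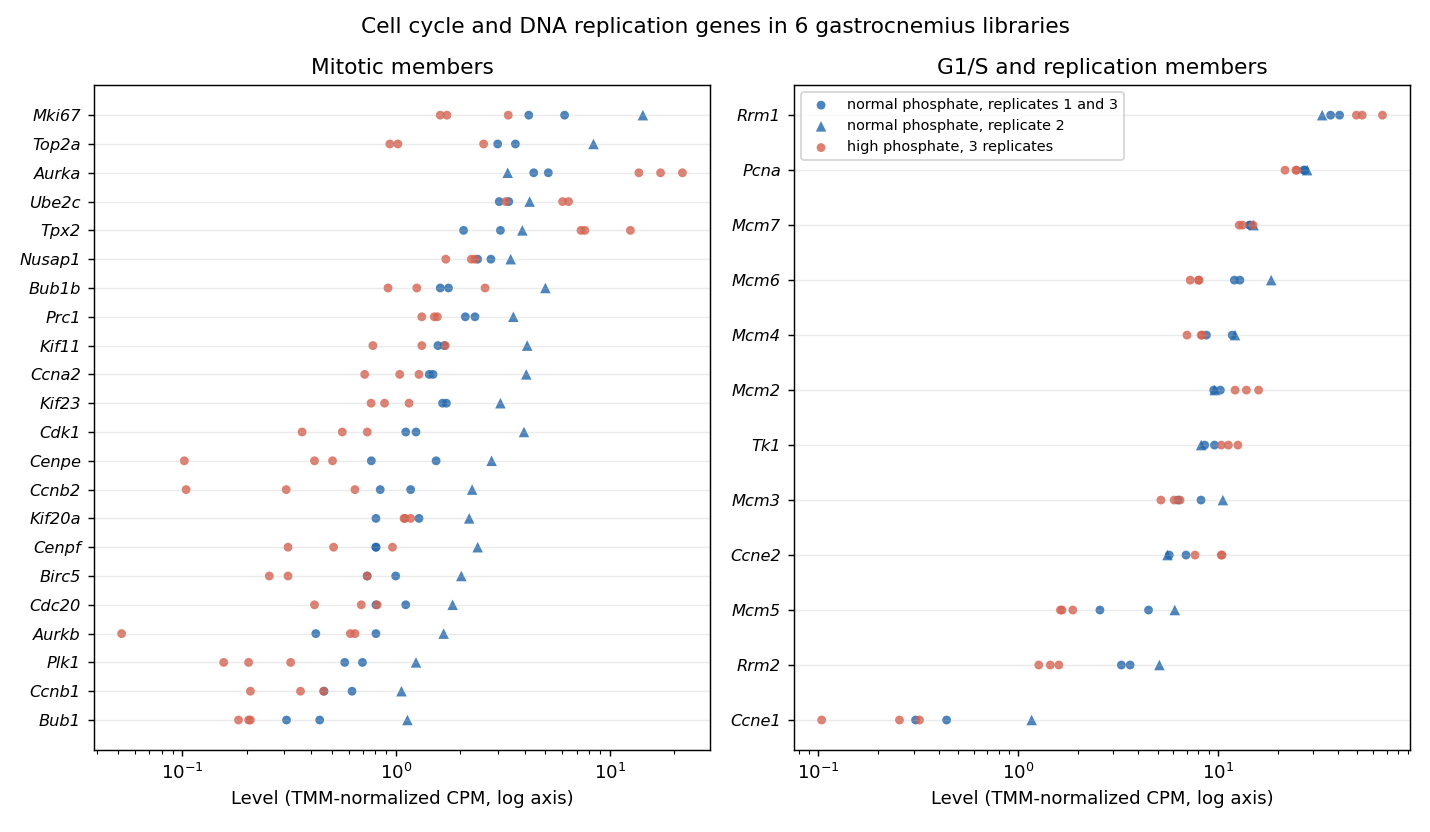
Level of each of the 34 members in each library (TMM-normalized CPM, log axis), mitotic members left and G1/S and replication members right; the triangle is normal phosphate replicate 2. The triangle is the highest point for 19 of 22 mitotic members and 8 of 12 replication members, and Aurka and Tpx2 are the 2 mitotic members whose high phosphate points all lie above the normal ones.

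Leaving out normal phosphate replicate 2 reduced the mitotic calls to 5 lower and left 2 higher, and the median moved to -0.57. The 5 were Mki67, Cdk1, Cenpe, Kif23 and Plk1, all of which were also called with 6 libraries. For replication members the counts became 3 lower and 3 higher, with a median of -0.19. Among all 15556 genes tested without that library, 22.2% fell and 19.6% rose. Without that library and with library size alone, 11 mitotic members fell and 2 rose and 7 replication members fell and 0 rose, where 45.4% of all genes fell and 4.72% rose. The mitotic count also dropped to 2 lower without high phosphate replicate 2 and to 2 without high phosphate replicate 3. Without normal phosphate replicate 1 it was 12, without normal phosphate replicate 3 it was 11 and without high phosphate replicate 1 it was 8. Cenpe and Plk1 were called in each of these runs. Both passed the low-count filter through the normal libraries, where they were higher. Their high phosphate counts were 7, 4 and 3 for Plk1 and 11, 2 and 8 for Cenpe. The lasting calls are therefore not separate support for a fall. The share of all genes called was not counted for runs that left out a library other than normal phosphate replicate 2. The mitotic counts of those runs therefore cannot be set against the whole table.

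**Figure D2:**
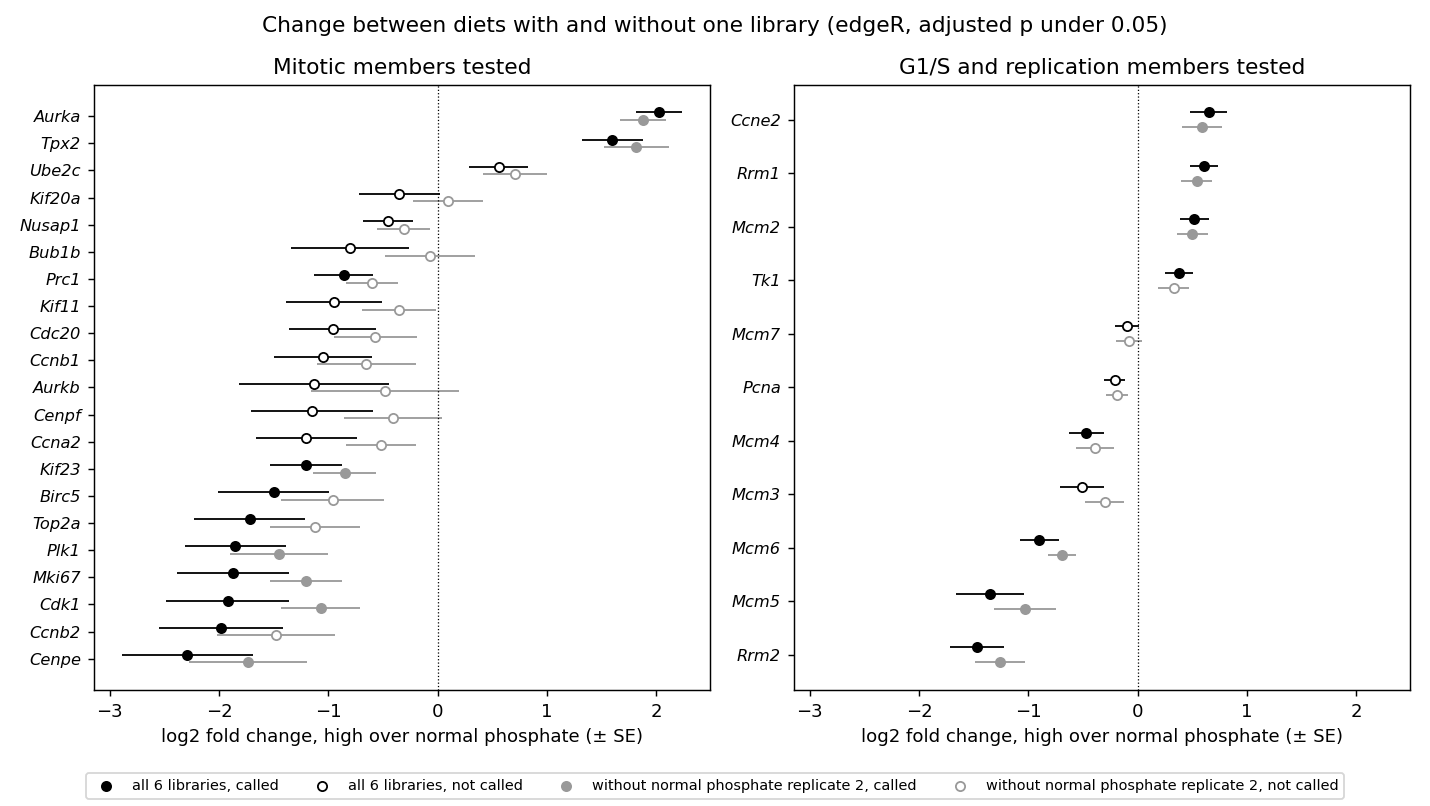
Log2 fold change (high over normal phosphate, ± SE) of the 32 members tested, with all 6 libraries (black) and without normal phosphate replicate 2 (grey); filled points are called by edgeR. Grey points of mitotic members lie nearer 0 than black ones for all but Tpx2 and Ube2c, and Aurka stays near 2 in both fits. With library size alone Ccne2, Rrm1, Mcm2 and Tk1 are not called, and Tk1 turns to -0.092.

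Mki67 encodes the Ki-67 protein that coats mitotic chromosomes and is the standard marker of dividing cells. Its level was 4.18, 14.3 and 6.15 CPM in normal phosphate replicates 1, 2 and 3 and 3.35, 1.73 and 1.61 CPM in high phosphate replicates 1, 2 and 3. Replicate 2 of the normal diet was far above every other library, high phosphate replicate 1 came closest to the normal range, and the diets did not overlap. Mki67 fell by 1.87 ± 0.51 on the log2 scale (adjusted p = 0.0183), and by 1.20 ± 0.33 without normal phosphate replicate 2 (adjusted p = 0.0198). The call was lost without high phosphate replicate 2 (adjusted p = 0.0674) or replicate 3 (adjusted p = 0.0632), and with no filter on low counts (adjusted p = 0.125). Top2a, the topoisomerase that untangles replicated chromosomes, had 2.99, 8.40 and 3.62 CPM on the normal and 2.57, 1.02 and 0.935 CPM on the high phosphate diet, in the same order. The diets again did not overlap, and the 6 libraries ranked as they did for Mki67. Top2a fell by 1.72 ± 0.51 (adjusted p = 0.0244), a call that was lost without normal phosphate replicate 2 (-1.12, adjusted p = 0.0573).

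The cyclin-dependent kinase of mitosis, Cdk1, was represented by 29, 112 and 34 counts on the normal and 16, 11 and 7 counts on the high phosphate diet. These were 1.11, 3.97 and 1.24 CPM against 0.733, 0.560 and 0.363 CPM, and normal phosphate replicate 2 was 3.37 times the mean of replicates 1 and 3. No high phosphate library reached the lowest normal one. Cdk1 fell by 1.92 ± 0.56 (adjusted p = 0.0211), and by 1.07 ± 0.36 without normal phosphate replicate 2 (adjusted p = 0.0401). Ccnb2, a cyclin partner of Cdk1, had 22, 64 and 32 counts against 14, 6 and 2, and fell by 1.98 ± 0.57 (adjusted p = 0.0184). Without normal phosphate replicate 2 its value was -1.48 and its call was lost (adjusted p = 0.0539). The other mitotic cyclins were not called: Ccnb1 went from 0.715 ± 0.312 to 0.341 ± 0.126 CPM (-1.05 ± 0.45, adjusted p = 0.0770) and Ccna2 from 2.33 ± 1.51 to 1.01 ± 0.286 CPM (-1.20 ± 0.46, adjusted p = 0.0557). They stood at -0.65 and -0.52 without normal phosphate replicate 2. For both cyclins all high phosphate libraries lay below all normal ones in CPM. The deposited FPKM values of Ccna2 overlapped, at 0.917, 3.31 and 1.13 on the normal and 0.709, 0.952 and 1.38 on the high phosphate diet. Of the exonic bases of Ccna2, 12.5% overlap Exosc9 on the other strand. Of the exonic stretches of 50 bases in Ccnb1, 23.4% also occur elsewhere in the annotation, first in the pseudogene Ccnb1-ps, so its counts are uncertain.

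The lowest adjusted p among mitotic members that fell was that of Plk1, the Polo kinase that acts at centrosomes, kinetochores and the spindle midzone. It had 15, 35 and 19 counts on the normal and 7, 4 and 3 on the high phosphate diet, or 0.575, 1.24 and 0.696 CPM against 0.321, 0.204 and 0.156 CPM. The diets did not overlap. Plk1 fell by 1.85 ± 0.46 (adjusted p = 0.00939), and by 1.45 ± 0.45 without normal phosphate replicate 2 (adjusted p = 0.0300). Its pseudogene Plk-ps1 shares part of its sequence, and 10.4% of its exonic stretches of 50 bases occur elsewhere.

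Kinetochore and checkpoint genes were scarce. Cenpe, the kinesin that carries chromosomes to the metaphase plate, had 20, 79 and 42 counts on the normal and 11, 2 and 8 on the high phosphate diet, with no overlap after scaling. It fell by 2.29 ± 0.60 (adjusted p = 0.0123), and by 1.73 ± 0.54 without normal phosphate replicate 2 (adjusted p = 0.0312). Bub1, a checkpoint kinase that was not tested, had 8, 32 and 12 counts against 4, 4 and 4. Each high phosphate library was below each normal one, and without the filter its log2 fold change was -1.62 (adjusted p = 0.0172). Its partner Bub1b, which blocks anaphase until chromosomes are attached, was not called (2.79 ± 1.91 and 1.59 ± 0.899 CPM, -0.80 ± 0.54, adjusted p = 0.245). Cenpf, a kinetochore protein, was not called either (1.34 ± 0.926 and 0.594 ± 0.334 CPM, -1.15 ± 0.56, adjusted p = 0.114). Both overlapped between diets, and without normal phosphate replicate 2 they stood at -0.069 and -0.41. Normal phosphate replicate 2 was 2.97 times the mean of replicates 1 and 3 for Bub1b and 2.99 times for Cenpf.

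Survivin (Birc5) and Aurora B (Aurkb) belong to the chromosomal passenger complex, which corrects chromosome attachment and directs cytokinesis. Birc5 had 0.996, 2.02 and 0.732 CPM on the normal and 0.733, 0.255 and 0.312 CPM on the high phosphate diet, and the lowest normal library met the highest of the other diet. It fell by 1.50 ± 0.51 (adjusted p = 0.0361), a call lost without normal phosphate replicate 2 (-0.96, adjusted p = 0.131). Aurkb had 11, 47 and 22 counts against 14, 12 and 1, overlapped, and was not called (-1.13 ± 0.69, adjusted p = 0.203), with a value of -0.48 without that library.

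Spindle motors and midzone proteins split in the same way. Kif23, the motor of the central spindle, had 1.65, 3.08 and 1.72 CPM on the normal and 1.15, 0.764 and 0.883 CPM on the high phosphate diet, without overlap. It fell by 1.20 ± 0.33 (adjusted p = 0.0149), and by 0.85 ± 0.29 without normal phosphate replicate 2 (adjusted p = 0.0452). Prc1, which bundles midzone microtubules, went from 2.66 ± 0.770 to 1.46 ± 0.122 CPM and fell by 0.86 ± 0.27 (adjusted p = 0.0238), with a value of -0.60 and no call without that library (adjusted p = 0.0754). Over 11.1% of its exonic bases Prc1 overlaps Rccd1 on the other strand. Kif11, the motor that pushes spindle poles apart, was not called (2.45 ± 1.43 and 1.27 ± 0.461 CPM, -0.95 ± 0.44, adjusted p = 0.101, and -0.35 without normal phosphate replicate 2). Kif20a, a cytokinesis motor, went from 1.43 ± 0.707 to 1.12 ± 0.0446 CPM and was not called (-0.35 ± 0.37, adjusted p = 0.446), and its value was 0.099 without normal phosphate replicate 2. Of the exonic bases of Kif20a, 29.3% overlap Cdc23 on the other strand. Nusap1, which stabilizes spindle microtubules, was not called (2.88 ± 0.518 and 2.10 ± 0.339 CPM, -0.45 ± 0.23, adjusted p = 0.135, and -0.31 without that library), although its diets did not overlap.

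Cdc20 and Ube2c work with the anaphase-promoting complex, which marks cyclin B and securin for destruction. Cdc20, its activator, was not called (1.25 ± 0.533 and 0.639 ± 0.204 CPM, -0.96 ± 0.40, adjusted p = 0.0692, and -0.57 without normal phosphate replicate 2). Ube2c, its ubiquitin-conjugating enzyme, had 88, 119 and 83 counts on the normal and 140, 64 and 116 on the high phosphate diet, overlapped, and was not called (0.56 ± 0.27, adjusted p = 0.106, and 0.71 without that library). The counts and the deposited FPKM values of Ube2c do not describe the same abundance. Its FPKM was 946, 740 and 839 on the normal and 1302, 1209 and 1289 on the high phosphate diet, while Mki67 stood at 0.344, 1.43 and 0.555 FPKM on the normal diet. The other strand at this place holds Tnnc2, the fast troponin C of muscle fibres. Ube2c lies at chr2:164769898-164778822 (plus strand) and Tnnc2 at chr2:164777161-164779967 (minus strand), and 592 exonic bases are common to both, which is 22.8% of Ube2c and 74.0% of Tnnc2. Tnnc2 had 84, 46 and 86 counts on the normal and 152, 104 and 92 on the high phosphate diet, beside 9424, 7415 and 8810 FPKM and 13490, 12052 and 12772 FPKM. Whether the strand was used in counting is not given in the sources used here, so the Ube2c values are uncertain and no direction is read from them.

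Aurora A and its activator TPX2 went the other way from most mitotic members. Aurka, the kinase that matures centrosomes and builds the bipolar spindle, had 4.41, 3.33 and 5.16 CPM on the normal and 13.7, 21.9 and 17.3 CPM on the high phosphate diet. Every high phosphate library was more than 2 times the highest normal one, and normal phosphate replicate 2, the highest library for most mitotic members, was the lowest for Aurka. Aurka rose by 2.03 ± 0.21 on the log2 scale (adjusted p = 0.000372), by 1.88 ± 0.21 without normal phosphate replicate 2 (adjusted p = 0.000545) and by 1.58 with library size alone (adjusted p = 0.000848). It was called in the higher direction under every alternative run. Per kilobase of exon Aurka went from 1.70 ± 0.364 to 6.97 ± 1.63 CPM. Tpx2, which activates Aurora A and recruits it to spindle microtubules, had 2.07, 3.90 and 3.08 CPM on the normal and 7.65, 7.34 and 12.5 CPM on the high phosphate diet. The diets did not overlap, and high phosphate replicate 3 was the highest. Tpx2 rose by 1.6 ± 0.28 (adjusted p = 0.00218), by 1.82 ± 0.30 without normal phosphate replicate 2 (adjusted p = 0.00238) and by 1.11 with library size alone (adjusted p = 0.0184). On the authors' FPKM values its call was lost, at 0.51 for log2(FPKM + 1) (limma adjusted p = 0.0579) and 1.01 for log2(FPKM + 0.1) (limma adjusted p = 0.0521). Neither gene overlaps another on the other strand in the annotation used. Aurka lies at chr2:172356190-172370535 (minus strand) and Tpx2 at chr2:152847964-152895321 (plus strand) on GRCm38.

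**Figure D3:**
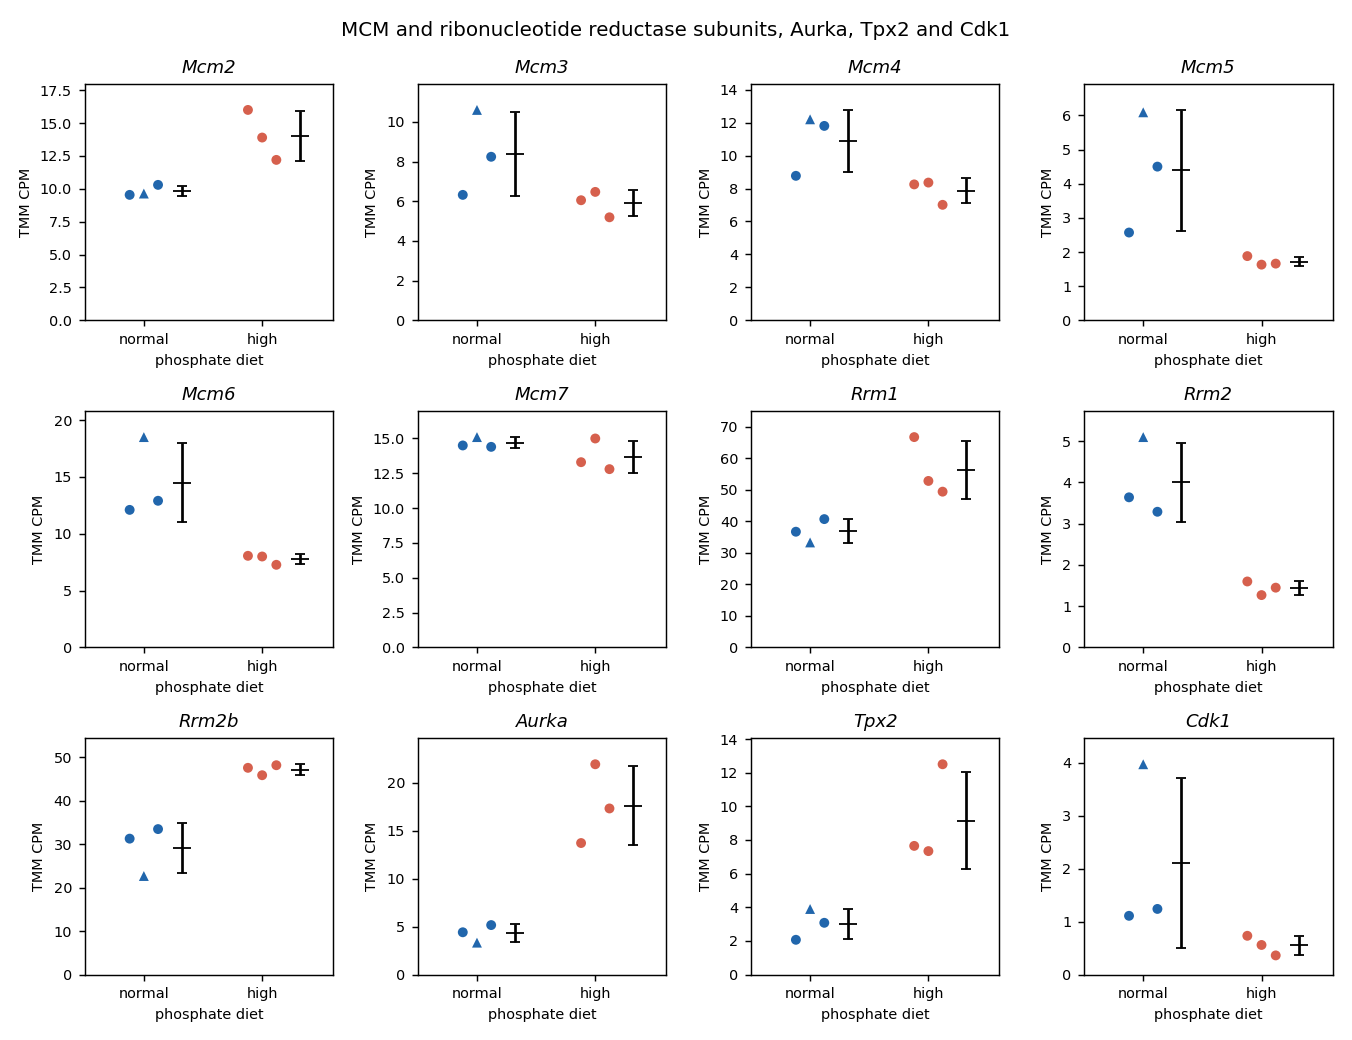
Level in each library (TMM CPM, linear axis from 0) of 6 MCM subunits, 3 ribonucleotide reductase subunits, Aurka, Tpx2 and Cdk1; triangles are normal phosphate replicate 2, and bars are mean ± SD with n = 3. Mcm5, Mcm6 and Rrm2 lie lower on the high phosphate diet, and Mcm2, Rrm1 and Rrm2b lie higher on this scale; with library size alone Mcm2, at 0.034, and Rrm1, at 0.13, are not called.

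The 6 MCM proteins form 1 hexameric helicase, yet their transcripts did not move together. Mcm5 had 2.57, 6.09 and 4.50 CPM on the normal and 1.88, 1.63 and 1.66 CPM on the high phosphate diet, with normal phosphate replicate 1 nearest to the other diet. It fell by 1.35 ± 0.31 (adjusted p = 0.00717), and by 1.03 ± 0.28 without normal phosphate replicate 2 (adjusted p = 0.0179). Mcm6 had 12.1, 18.5 and 12.9 CPM against 8.06, 8.0 and 7.27 CPM, with a gap between the diets larger than the spread of the high phosphate libraries. It fell by 0.90 ± 0.18 (adjusted p = 0.00325), and by 0.69 ± 0.13 without that library (adjusted p = 0.00335). Mcm5 and Mcm6 were called under every alternative run. Mcm4 had 8.77, 12.2 and 11.8 CPM against 8.25, 8.36 and 7.01 CPM and fell by 0.47 ± 0.16 (adjusted p = 0.0366). That call was lost without normal phosphate replicate 2 (-0.39, adjusted p = 0.0949) and without any single library other than normal phosphate replicate 1. Mcm3 was not called (8.38 ± 2.14 and 5.90 ± 0.652 CPM, -0.51 ± 0.20, adjusted p = 0.0639), nor was Mcm7 (14.7 ± 0.395 and 13.7 ± 1.15 CPM, -0.10 ± 0.11, adjusted p = 0.473). Their values were -0.30 and -0.080 without normal phosphate replicate 2.

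Mcm2 was the subunit at the other end. Its level was 9.54, 9.64 and 10.3 CPM on the normal and 16.0, 13.9 and 12.2 CPM on the high phosphate diet, without overlap. After TMM scaling it rose by 0.52 ± 0.13 (adjusted p = 0.0111), and by 0.50 ± 0.14 without normal phosphate replicate 2 (adjusted p = 0.0213), but with library size alone its value was 0.034 and not called, and on the FPKM values it turned to -0.0024 and -0.0037. Its direction thus depended on the scaling. Per kilobase of exon the subunits spanned 1.10 ± 0.442 (Mcm5) to 3.32 ± 0.0892 CPM (Mcm7) on the normal diet, and 0.432 ± 0.0339 (Mcm5) to 3.09 ± 0.261 CPM (Mcm7) on the high phosphate diet. Mcm6 stood at 3.11 ± 0.749 and 1.67 ± 0.0947 CPM per kilobase, and Mcm2 at 1.41 ± 0.0554 and 2.02 ± 0.277, so Mcm2 was below Mcm6 on the normal diet and above it on the high phosphate diet. Of the exonic stretches of 50 bases in Mcm7, 23.3% occur elsewhere in the annotation, first in the pseudogene Gm5487.

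Ribonucleotide reductase, which makes deoxynucleotides, joins the large subunit Rrm1 either to Rrm2, made in S phase, or to Rrm2b, induced by p53 and used outside S phase. Rrm2 had 3.64, 5.10 and 3.29 CPM on the normal and 1.6, 1.27 and 1.45 CPM on the high phosphate diet, and the lowest normal library was about 2 times the highest of the other diet. Rrm2 fell by 1.47 ± 0.25 (adjusted p = 0.00173), by 1.26 ± 0.23 without normal phosphate replicate 2 (adjusted p = 0.00302), and it was called under every alternative run. Rrm1 had 36.7, 33.3 and 40.7 CPM against 66.7, 52.8 and 49.4 CPM, with no overlap. It rose by 0.61 ± 0.13 (adjusted p = 0.00546), and by 0.54 ± 0.14 without normal phosphate replicate 2 (adjusted p = 0.0130), but its value with library size alone was 0.13 and not called (adjusted p = 0.357). Rrm2b, which is no member and was looked up after the values of Rrm1 and Rrm2 were seen, had 31.3, 22.7 and 33.5 CPM on the normal and 47.6, 45.9 and 48.2 CPM on the high phosphate diet. It rose by 0.70 ± 0.14 (adjusted p = 0.00399), with a value of 0.23 under library size alone. Between members, Rrm1 was 3.35 ± 0.335 and Rrm2 1.45 ± 0.346 CPM per kilobase of exon on the normal diet, and 5.12 ± 0.832 and 0.521 ± 0.0596 on the high phosphate diet.

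Tk1, the thymidine kinase of S phase, had 9.62, 8.25 and 8.60 CPM on the normal and 10.4, 11.3 and 12.6 CPM on the high phosphate diet. Its rise of 0.38 ± 0.13 (adjusted p = 0.0405) turned to -0.092 with library size alone and lost its call without normal phosphate replicate 2 (0.33, adjusted p = 0.0892). Pcna, the replication clamp, had 27.3, 28.0 and 26.9 CPM against 24.6, 24.8 and 21.7 CPM, so the diets did not overlap, but it was not called (-0.21 ± 0.099, adjusted p = 0.106, and -0.19 without that library). By counts it was the most abundant member per length (by the deposited FPKM, Ube2c was), at 11.4 ± 0.229 and 9.87 ± 0.720 CPM per kilobase of exon, and 19.1% of its exonic stretches of 50 bases occur elsewhere, first in Pcna-ps2.

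Cyclins E1 and E2 both activate CDK2 at the start of S phase. Ccne1, not tested, had 8, 33 and 12 counts on the normal and 7, 5 and 2 on the high phosphate diet, where the scaled values of the diets overlapped, and without the filter its log2 fold change was -1.44 (adjusted p = 0.0375). Ccne2 had 6.93, 5.60 and 5.71 CPM against 10.5, 7.69 and 10.4 CPM, without overlap, and rose by 0.65 ± 0.17 (adjusted p = 0.0123), and by 0.59 ± 0.18 without normal phosphate replicate 2 (adjusted p = 0.0299). With library size alone its value was 0.17 and not called (adjusted p = 0.420), and 17.4% of its exonic bases overlap Ints8 on the other strand.

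The share of members that did not overlap between diets can be read against the whole table. High phosphate lay below normal in 11 of 21 mitotic and 5 of 11 replication members tested, and in 32.1% of all genes tested. It lay above normal in 2 mitotic and 4 replication members, and in 30.3% of all genes.

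Normal phosphate replicate 2 was the highest of the 6 libraries for 18 of 21 mitotic and 7 of 11 replication members tested, and for 31.5% of all genes tested. It was at least 2 times the mean of normal phosphate replicates 1 and 3 for 12 of 21 mitotic and 0 of 11 replication members tested, and for 2.64% of all genes tested. Over all 22 mitotic members the median of this ratio was 2.29, with a range from 0.696 (Aurka) to 3.37 (Cdk1). Over all 12 replication members it was 1.12, with a range from 0.861 (Rrm1) to 3.14 (Ccne1, not tested), so the ranges of the groups overlapped. The groups also differed in level, with a median normal mean of 2.13 CPM for mitotic and 9.32 CPM for replication members. Ccne1 was as scarce as the scarcer mitotic members, at 0.638 CPM. The part of level in this difference was not tested. The median mitotic member stood at 1.30, 3.21 and 1.48 CPM in the normal and at 1.12, 0.790 and 0.831 CPM in the high phosphate libraries. The median replication member stood at 9.16, 10.1 and 9.43 CPM and at 9.35, 8.18 and 8.83 CPM.

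Several, but not all, lists of markers of other cell types were lower on the high phosphate diet. Every count of calls below stands beside 26.3% of all genes tested that fell and 23.0% that rose. Summed over 8 fibroblast markers the level was 5635, 10614 and 4626 CPM on the normal and 2312, 2429 and 2567 CPM on the high phosphate diet, and all 8 fell. Over 9 macrophage markers it was 1441, 1970 and 1039 CPM and then 494, 581 and 392 CPM, where 8 fell and 1 rose. Replicate 2 of the normal diet was the highest library in both lists, at 2.07 and 1.59 times the mean of replicates 1 and 3. In the fibroblast list the collagens had the higher ratios, Col1a1 at 3.99, Col1a2 at 3.22 and Col3a1 at 3.08 times. Lum lay between at 1.82 times, while Pdgfra (1.18), Dpt (1.21), Pi16 (1.10) and Dcn (0.969) were near the other replicates. The 9 B cell markers summed to 13.9, 92.1 and 84.2 CPM on the normal and to between 1.28 and 2.75 CPM on the high phosphate diet, and all 9 fell. The 8 T cell markers summed to 11.1, 39.1 and 28.8 CPM and to between 0.831 and 2.19 CPM, and all 8 fell. Replicate 2 was 1.88 times the mean of replicates 1 and 3 for the B cell and 1.96 times for the T cell sum. In the B cell sum, however, replicate 3 was close to replicate 2, and replicate 1 was the library that stood apart. Endothelial markers summed to 763 to 896 CPM on the normal and 456 to 640 CPM on the high phosphate diet, 6 of 7 fell, and replicate 2 stood at 1.17 times. All 8 white adipocyte markers fell (2445 to 3101 and 588 to 1009 CPM), with replicate 2 at 0.839 times. Of 5 tenocyte markers 2 fell (522 to 808 and 326 to 455 CPM), with replicate 2 at 1.52 times. For the neutrophil list the ratio was 0.734. Erythroid markers had no call and overlapped (215 to 391 and 114 to 727 CPM), with replicate 2 at 1.73 times.

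Of 9 satellite cell and myoblast markers, 4 fell and 2 rose, where 26.3% of all genes tested fell and 23.0% rose. The sum of these markers, led by Des, which fibres also express, was 1686 to 2371 CPM on the normal diet. On the high phosphate diet it was 4536 to 4816 CPM. Pax7, the marker of satellite cells, had 146, 128 and 139 counts on the normal and 60, 37 and 68 on the high phosphate diet. Myog, a factor of differentiating myoblasts, had 337, 534 and 240 counts and then 125, 89 and 82. After TMM scaling Pax7 fell by 0.9 ± 0.24 and Myog by 1.48 ± 0.27, and Vcam1 and Megf10 fell too. Cdh15, named after its values were seen, had 320, 275 and 303 counts and then 538, 464 and 523. It rose by 1.19 ± 0.12 (adjusted p = 0.000324), and by 0.72 with library size alone (adjusted p = 0.00191). Des rose as well, and Myf5, Myod1 and Calcr were not called, so the list gave no single direction. Of 7 germinal centre B cell markers 4 were tested, where S1pr2 and Gcsam fell, Bcl6 rose and Fas was not called. Their list summed to 77.9 to 107 CPM on the normal and 133 to 157 CPM on the high phosphate diet. This sum was led by Bcl6, at 67.2 ± 18.5 and 132 ± 13.0 CPM, so it does not show a rise of the list. With so few genes tested, no result is read from its calls. Mef2b of that list had at most 2 counts in any library. Of 8 neutrophil markers 3 were tested, and Retnlg fell while S100a8 and S100a9 were not called. The neutrophil sums were 4.29 to 6.59 CPM and 2.28 to 4.53 CPM, and Ly6g was at 0 in all libraries. The part of these cell types in the values of the mitotic members was not tested.

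**Figure D4:**
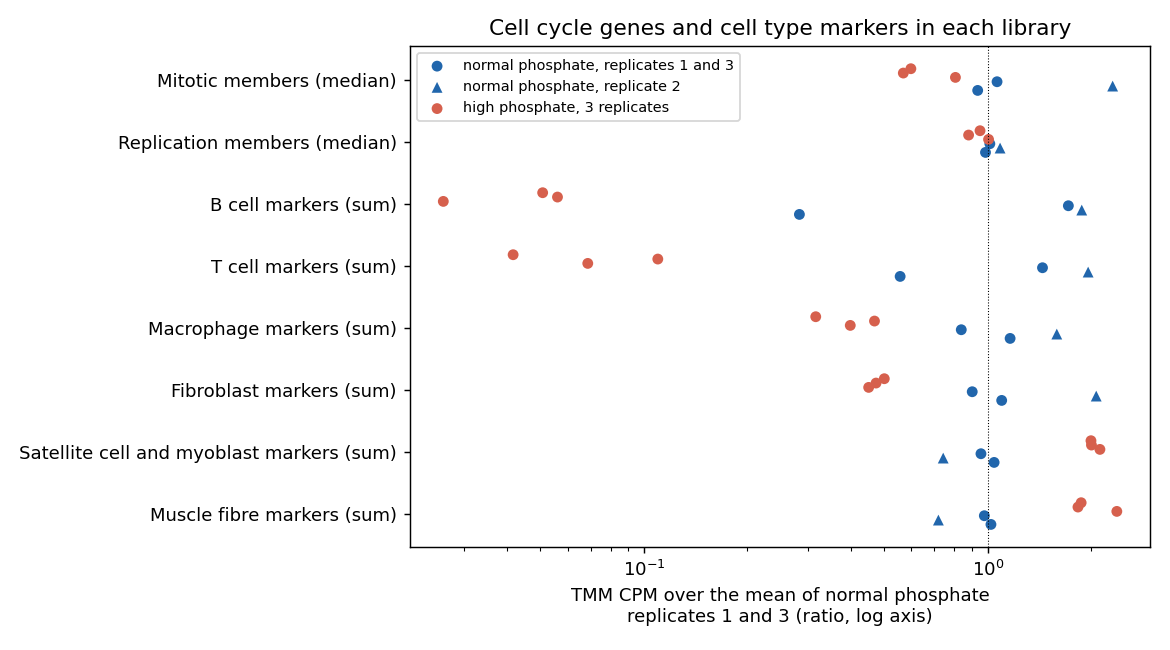
Median level of mitotic and of replication members, and summed level of 6 marker lists, in each library relative to the mean of normal phosphate replicates 1 and 3 (ratio of TMM CPM, log axis); triangles are normal phosphate replicate 2. The triangle lies above 1 for mitotic members and for the fibroblast (2.07), T cell (1.96), B cell (1.88) and macrophage (1.59) sums, while replication members stay near 1 and muscle fibre markers lie above 1 in the high phosphate libraries. For the B cell sum, normal phosphate replicate 3 lies close to the triangle and replicate 1 far below both.

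Of 44 further genes of chromosome segregation, the checkpoint and cytokinesis, 33 were tested, 14 fell and 0 rose by edgeR, with a median of -0.84, where 26.3% of all genes tested fell and 23.0% rose. At an unadjusted p under 0.05, 1 was higher by edgeR. DESeq2 called 1 higher, where 19.2% of its genes rose. So did edgeR with other size factors, with no low-count filter and without normal phosphate replicate 1, where the share of all genes was not counted. Of the 33 further mitosis genes tested with all libraries, 14 fell as given above. Without normal phosphate replicate 2, 9 of the list fell and 0 rose, where 22.2% of all genes fell and 19.6% rose. The gene called higher in those settings was Pttg1, securin, named after its values were seen (0.37 ± 0.14, adjusted p = 0.0568 by edgeR with all libraries). The 4 with the smallest p were Smc4, a condensin subunit (22.6 ± 4.21 to 11.2 ± 0.909 CPM, -1.01 ± 0.15, adjusted p = 0.00111), and Cenpa, the centromeric histone (5.92 ± 0.914 to 2.22 ± 0.578 CPM, -1.41 ± 0.24, adjusted p = 0.00173). Then came Cit, the citron kinase of cytokinesis (4.09 ± 1.53 to 1.48 ± 0.350 CPM, -1.47 ± 0.32, adjusted p = 0.00492), and Mad2l1, a checkpoint protein (3.81 ± 0.692 to 2.02 ± 0.0902 CPM, -0.91 ± 0.22, adjusted p = 0.00754). For all 4 the diets did not overlap, and all 4 were called without normal phosphate replicate 2.

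Replication genes outside the members were mixed as well. Of 46, 44 were tested, 18 fell and 5 rose, with a median of -0.30, where 26.3% of all genes tested fell and 23.0% rose. With library size alone 28 fell and 0 rose, where 51.4% of all genes fell and 5.72% rose. The counts were 12 and 4 without normal phosphate replicate 2. Tyms, which makes thymidylate, fell from 3.80 ± 1.07 to 1.27 ± 0.304 CPM (-1.58 ± 0.28, adjusted p = 0.00229). Pola1, the polymerase that starts new strands, fell from 6.03 ± 0.392 to 3.52 ± 0.313 CPM (-0.78 ± 0.17, adjusted p = 0.00475). Lig1, the ligase of lagging strands, fell from 4.96 ± 0.812 to 2.88 ± 0.179 CPM (-0.78 ± 0.19, adjusted p = 0.00910). Gmnn, the inhibitor of origin licensing, rose from 3.11 ± 0.567 to 5.60 ± 0.930 CPM (0.84 ± 0.21, adjusted p = 0.00928), and was not called with library size alone. The others that rose, named because they were few, were the origin recognition subunits Orc3 (0.41) and Orc4 (0.29), the polymerase delta subunit Pold2 (0.51) and the single-strand binding protein Rpa2 (0.33). With library size alone none of them was called, and the values were -0.058 for Orc3, -0.18 for Orc4, 0.045 for Pold2 and -0.14 for Rpa2. The calls of Orc4 (adjusted p = 0.0684) and Rpa2 (adjusted p = 0.0851) were lost without normal phosphate replicate 2.

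Of 26 upstream regulator genes for D cyclins, their kinases, the RB and E2F families and MuvB, all tested, 12 fell, 6 rose and 8 were not called, with a median of -0.44, where 26.3% of all genes tested fell and 23.0% rose. With normal phosphate replicate 2 left out, 9 fell and 6 rose. All 3 D cyclins, which start G1 progression with CDK4 and CDK6, fell. Ccnd2 had 37.4, 56.4 and 41.4 CPM on the normal and 20.0, 17.9 and 19.8 CPM on the high phosphate diet, without overlap, and fell by 1.23 ± 0.16 (adjusted p = 0.000662). Ccnd1 fell from 22.5 ± 7.99 to 12.7 ± 1.50 CPM (-0.83 ± 0.24, adjusted p = 0.0207) and Ccnd3 from 27.9 ± 4.52 to 19.4 ± 3.07 CPM (-0.52 ± 0.15, adjusted p = 0.0183). Ccnd1 shares 23.4% of its exonic bases with a gene on the other strand. Rb1, the retinoblastoma protein that restrains E2F, fell from 37.9 ± 1.86 to 27.2 ± 0.699 CPM (-0.48 ± 0.093, adjusted p = 0.00324).

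Among the transcription factors of the cycle, E2f1, an activator of G1/S genes, fell from 2.49 ± 0.959 to 1.28 ± 0.199 CPM (-0.96 ± 0.32, adjusted p = 0.0307). Foxm1, the activator of G2/M genes, had 1.19, 2.59 and 1.24 CPM on the normal and 0.779, 0.662 and 0.727 CPM on the high phosphate diet, the library order seen for Cdk1 on the normal diet. It fell by 1.21 ± 0.37 (adjusted p = 0.0234). Without normal phosphate replicate 2 both calls were lost, with adjusted p = 0.103 for E2f1 and 0.0755 for Foxm1. Mybl2, which encodes B-MYB, was not called (-1.08 ± 0.55, adjusted p = 0.127). The E2F and RB families held genes called in both directions. Besides E2f1 and Rb1, E2f2 (-1.11 ± 0.16, adjusted p = 0.000988), E2f5 (-0.65 ± 0.20, adjusted p = 0.0233, and 0.0559 without normal phosphate replicate 2) and Rbl1 (-0.88 ± 0.19, adjusted p = 0.00461) fell. E2f3, E2f4, E2f6, the E2F partners Tfdp1 and Tfdp2, and Rbl2, an RB relative found in quiescent cells, rose. With library size alone 3 regulators were called higher, E2f3, E2f6 and Tfdp2. In that run E2f4 (0.19), Tfdp1 (-0.085) and Rbl2 (-0.028) were not called. The kinases that D and E cyclins activate all fell, Cdk6 by 1.86 ± 0.22 (adjusted p = 0.000545), Cdk2 by 0.98 ± 0.18 (adjusted p = 0.00230) and Cdk4 by 0.41 ± 0.12 (adjusted p = 0.0168). These further regulators were named after their values were seen. E2f6, a repressor of the family and the highest of them, had 112, 75.3 and 109 CPM on the normal and 222, 232 and 230 CPM on the high phosphate diet (1.21 ± 0.16, adjusted p = 0.000783), and it was singled out after its values were seen.

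**Figure D5:**
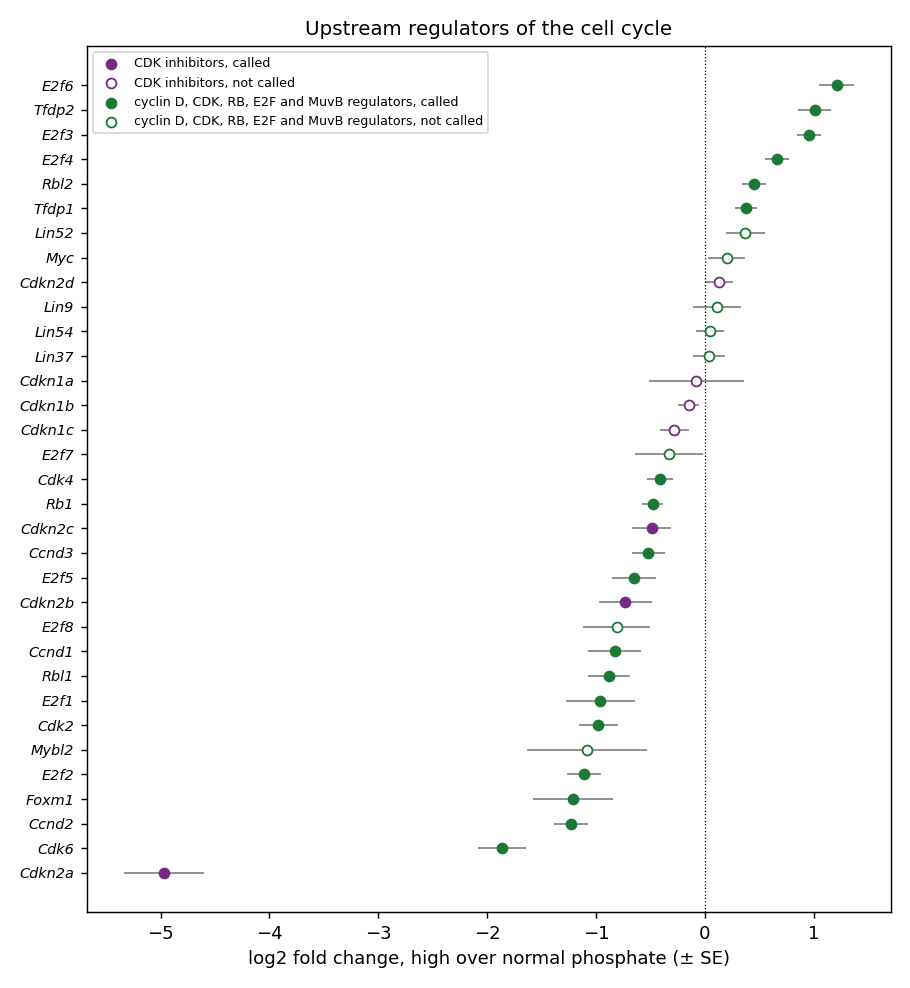
Log2 fold change (high over normal phosphate, ± SE, TMM scaling) of 26 regulators (green) and 7 CDK inhibitors (purple); filled points are called by edgeR. The D cyclins, Foxm1 and Rb1 lie left of 0, E2f6 lies farthest right at 1.21 and Cdkn2a farthest left at -4.97; with library size alone 3 regulators are called higher.

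Of the 7 CDK inhibitors tested, 3 fell and 0 rose by edgeR, where 26.3% of all genes tested fell and 23.0% rose, and 0 were higher at an unadjusted p under 0.05 by edgeR or DESeq2. Only 1 was called lower without normal phosphate replicate 3 or any 1 of the high phosphate libraries, and 2 with other size factors or by DESeq2. DESeq2 called 19.4% of its genes lower, and the share was not counted for the other runs named. Cdkn1a, the p53 target p21, was 50.8 ± 14.9 CPM on the normal and 48.1 ± 28.5 CPM on the high phosphate diet (-0.077 ± 0.44, adjusted p = 0.896). Cdkn1b and Cdkn1c, which encode p27 and p57, were not called, at -0.15 ± 0.10 (adjusted p = 0.235) and -0.28 ± 0.13 (adjusted p = 0.0944). Cdkn2c, which encodes p18, fell from 27.4 ± 6.71 to 19.6 ± 2.64 CPM (-0.49 ± 0.18, adjusted p = 0.0472). The others that fell, named because they were few, were Cdkn2b (-0.73 ± 0.24, adjusted p = 0.0296) and Cdkn2a. Cdkn2a, which encodes p16 and ARF and is a marker of senescent cells, had 100, 139 and 156 counts on the normal and 2, 5 and 2 on the high phosphate diet. Its log2 fold change was -4.97 ± 0.37 (adjusted p = 0.000132), and its normal phosphate replicate 2 was 1.03 times the mean of replicates 1 and 3.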

How the data were processed

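RNA was sequenced from 6 gastrocnemius libraries, 3 for each diet. The authors deposited raw counts for each Ensembl gene and, for 38011 of these genes, FPKM values. The submitters' processing notes name DESeq2 1.6.3, featureCounts 1.4.6, HISAT2 2.0.1, Trim Galore 0.4.1 and the GRCm38 (mm10) build without saying what each was used for. Not given in the sources used here are the annotation release, whether counting used the strand, and how FPKM was computed.

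Diets and replicate numbers came from the sample labels. Counts were tested with edgeR 4.0.16 (R 4.3.3) by the quasi-likelihood F test with TMM scaling, filterByExpr (minimum count 10), robust estimation and Benjamini-Hochberg adjustment over the 15347 genes tested, and only the rows of interest were read from it. SEs of log2 fold changes are approximate, taken as |log2 fold change| over the root of F. The smallest library gave 21.9 counts at 1 CPM, and 11 members had under 10 counts in at least 1 library. The low-count filter can be passed through the libraries of a single diet. A gene scarce on high phosphate can thus be tested because it is higher on the normal diet. No library copied another, since chi-square per degree of freedom within a diet was 18.3 to 60.4. The fit was tested on simulated counts. Gene positions, exonic lengths and overlaps came from GENCODE M21 on GRCm38, matched by Ensembl identifier, and promoters from RefSeq.

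The members and all lists were chosen with earlier results of these data known. By rule, named were all members, 11 regulators and CDK inhibitors, and up to 4 called genes with the smallest p from each of 2 further lists. Further genes of the replication, mitosis, regulator and inhibitor lists were named after their values were seen. Alternatives were other size factors, library size alone, no low-count filter, the replicate number as a block, each library left out, DESeq2 1.42.0, and limma 3.58.1 on log2 FPKM with pseudocounts of 1 and 0.1 (genes at 0.1 FPKM or more in 3 libraries).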

Additional observations from a re-analysis of the deposited data

How the results depend on the processing

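Mitotic members called lower numbered 9, and 15 with library size alone, 5 on log2(FPKM + 1), and 2 to 12 when each library was left out in turn. With library size alone 51.4% of all genes fell and 5.72% rose. The share of all genes called was not counted on FPKM values, with other size factors, without the filter or with the replicate block. It was not counted either for other libraries left out than normal phosphate replicate 2. Counts of members from those runs therefore cannot be set against the whole table. In runs added after the data were seen, without normal phosphate replicate 2 the count was 5 over the genes of the full test. The count of replication members called lower went from 4 to 7 with library size alone, and also to 7 without normal phosphate replicate 2 and with library size alone (added), and ranged from 3 to 6 with a library left out. Replication members called higher went from 4 to 0 with library size alone, to 0 on log2(FPKM + 1) and log2(FPKM + 0.1) by limma, and to 0 without normal phosphate replicate 2 and with library size alone, with 0 at an unadjusted p under 0.05 in each; DESeq2 called 4. Signs turned for Kif20a without normal phosphate replicate 2 (0.099 in both runs, where it ranged from -0.63 to 0.099 with a library left out), for Mcm2 on FPKM (-0.0024 with a pseudocount of 1, -0.0037 with 0.1), and for Tk1 with library size alone (-0.092, and -0.076 without normal phosphate replicate 2). The cause was not tested.

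Replicate numbers did not pair the libraries (same-number correlations of deviations -0.0215, 0.0223 and 0.0188, and 3 of 6 libraries correlated best with their own number). With the replicate block, 10 mitotic members were called lower and 2 higher, and 3 replication members lower and 3 higher. The share of all genes called was not counted for that run. Further mitosis genes called lower numbered 14, and 24 with library size alone, 22 without the filter, 23 without normal phosphate replicate 1, and 9 without normal phosphate replicate 2 or high phosphate replicate 3, and those called higher 0, and 1 with other size factors, without the filter, without normal phosphate replicate 1 or by DESeq2. Further replication genes called lower numbered 18, and 28 with library size alone, 9 without high phosphate replicate 2 and 11 without replicate 3, and those called higher 5 and then 0 with library size alone or on FPKM. Regulators called lower numbered 12, and 6 without high phosphate replicate 1 or 3, and those called higher 6, 3 with library size alone and 1 on FPKM. CDK inhibitors called lower numbered 3, 5 with library size alone, and 1 without normal phosphate replicate 3 or any high phosphate library. Beside the counts of these lists, 51.4% of all genes fell and 5.72% rose with library size alone. No such share was counted with other size factors, without the filter, on FPKM values or without other libraries than normal phosphate replicate 2. The list counts of those runs are given without a share to set them against. Depth limits the 11 members with under 10 counts in a library: Bub1, Ccne1, Aurkb, Plk1, Ccnb1, Ccnb2, Cdk1, Cdc20, Birc5, Cenpf and Cenpe.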
